A study of Mus musculus with 6 samples.

Results

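The potassium channel family was taken as the rows of the deposited expression matrix whose symbol begins with Kcn, followed by lower-case letters and a digit. Of the 14477 genes in the matrix, 79 matched, 1 matching row was left out by the rule, and the other 78 make up the family. The rule reads the symbol and no measured value. Hippocampal RNA was compared between 3 Phf21bΔ4/Δ4 mice (numbered 2, 3, and 6) and 3 Phf21b+/+ mice (numbered 5, 7, and 8), with 1 library per mouse. Phf21bΔ4/Δ4 mice carry a CRISPR/Cas9 deletion in exon 4 of *Phf21b*, which encodes a PHD finger protein that reads histone marks. The deletion is present in the whole body and lowers the level of *Phf21b* without removing it. All 6 mice were untreated, and the study's methods state that young adult male and female littermates on a C57BL/6J background were used. The matrix lists genes that reached 1 CPM, a read count scaled to library size, in at least 2 libraries, so a channel gene below that level has no row.

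Potassium channels let potassium leave the neuron and so set the resting potential, end the action potential, and limit how often a neuron fires. Voltage-gated (Kv) channels open on depolarization, calcium- and sodium-activated channels open as these ions enter, inward rectifiers (Kir) conduct best near rest, and 2-pore-domain (K2P) channels leak. In the hippocampus Kv4 channels carry the A-type current of dendrites, Kv7 channels carry the M-current that holds back repetitive firing, and Kir4.1 lets astrocytes take up potassium.

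Each library held between 20495605 and 24881257 reads on the listed genes, and 3 reads, taken as the smallest level that this depth shows, came to between 0.127 and 0.143 CPM, for counting error only. *Phf21b* itself was at 2.15, 3.57, and 3.87 CPM in the Phf21bΔ4/Δ4 mice and at 6.50, 5.23, and 6.47 CPM in the Phf21b+/+ mice, and each Phf21bΔ4/Δ4 mouse was below each Phf21b+/+ mouse (FDR 0.141 by limma, so it was not past the threshold). Markers of hippocampal pyramidal neurons, such as *Camk2a* and *Slc17a7*, were present in all 6 mice and summed to between 2475 and 3908 CPM. Marker lists of other regions differed in level between the genotypes and among the mice. All 13 medial habenula markers were called lower in Phf21bΔ4/Δ4 mice, where they summed to 11.5, 8.76, and 7.18 CPM, against 177, 182, and 248 CPM in Phf21b+/+ mice, and *Pou4f1*, *Chat*, *Slc18a3*, and *Irx2* had at most 3 reads in each Phf21bΔ4/Δ4 mouse. The study had already listed most of these 13 genes as lower from the same samples, so their calls are not independent evidence. The 10 choroid plexus markers summed to 23554 CPM in Phf21b+/+ replicate 7 and 1795 CPM in replicate 8, but to between 249 and 382 CPM in the other 4 mice. Choroid plexus markers thus set 2 Phf21b+/+ mice apart from the third as well as from the Phf21bΔ4/Δ4 mice. The 10 CA1 markers summed to 1480.2, 1671, and 1671 CPM in Phf21bΔ4/Δ4 mice and 816, 720.2, and 837 CPM in Phf21b+/+ mice, with 5 called higher and 0 called lower. Among these markers, the study had already listed *Fibcd1*, *Mpped1*, *Galntl6*, *Htr1a*, and *Gpr161* as higher from the same samples. The CA1 calls are therefore not independent evidence. Dentate granule cell markers summed to 505, 453, and 982 CPM against 1252, 1116, and 1125 CPM, with 0 of 10 called, and interneuron markers to 1033, 1098, and 798 CPM against 648, 583, and 582 CPM, with 1 of 9 called higher. Each Phf21bΔ4/Δ4 mouse lay below each Phf21b+/+ mouse in 8 dentate markers (80%), beside 16.0% of all genes. The reverse held in 7 CA1 (70%) and 7 interneuron markers (77.8%), beside 15.0% of all genes. Thalamus markers summed to 231, 343, and 265 CPM in Phf21bΔ4/Δ4 mice and 806, 787, and 523 CPM in Phf21b+/+ mice. Of these 9 markers, 2 were called, all lower. Astrocyte marker sums overlapped, between 6448 and 7657 CPM against between 5787 and 7265 CPM, with 1 of 10 called, lower. Of the pyramidal neuron markers 0 of 8 were called, and 0 of 10 CA2 and CA3, 0 of 10 oligodendrocyte, and 0 of 10 microglia markers. From the interneuron, thalamus, and astrocyte lists, the study had already listed *Gad2*, *Tcf7l2*, and *Aqp4*. In bulk tissue, fewer cells of a type, less RNA per cell, and less neighbouring tissue in the sample cannot be told apart.

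**Figure D1:**
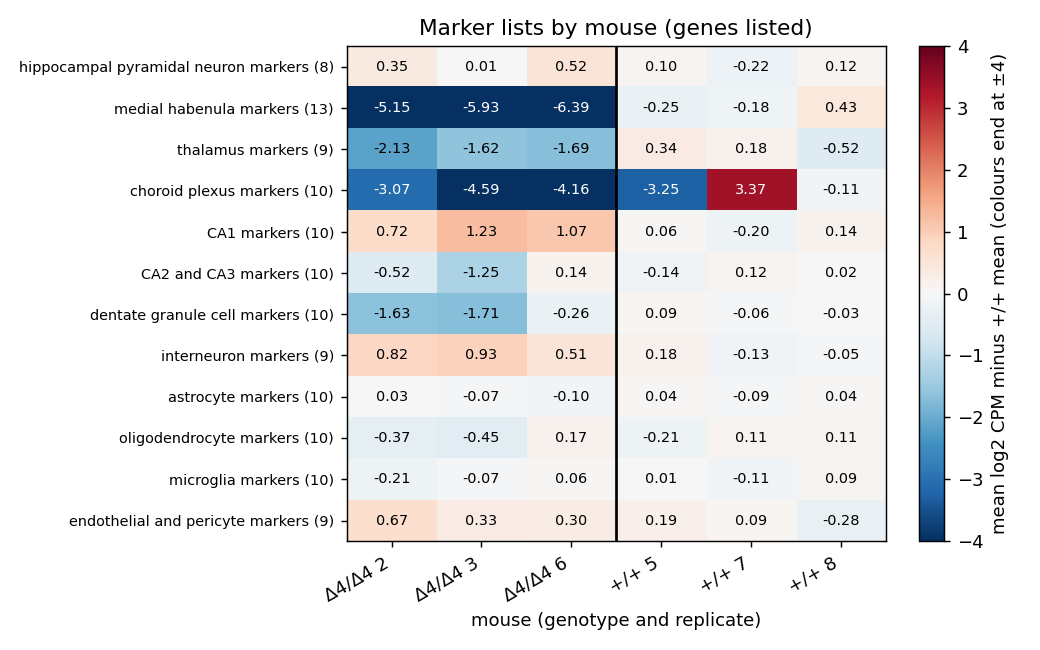
Mean log2 CPM of each list of marker genes in each mouse, relative to the mean of the 3 Phf21b+/+ mice, with the number of listed genes in parentheses and colours that end at ±4. Medial habenula markers lie between -5.15 and -6.39 in the 3 Phf21bΔ4/Δ4 mice, and the highest value of the choroid plexus markers, 3.37, is that of Phf21b+/+ replicate 7.

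Levels were compared between the genotypes on log2 CPM with limma's moderated test, and a gene was called at a false discovery rate (FDR) under 0.1 over all 14477 genes and a fold change above 1.3. Of the 78 potassium channel genes, 2 were called, *Kcng4* and *Kcnh8*, against 1.22% of all genes tested. Both fell in Phf21bΔ4/Δ4 mice, where 0.663% of all genes were called lower, and 0 of the 78 were called higher, where 0.553% of all genes were. At an unadjusted p under 0.05 there were 20 potassium channel genes, 13 of them higher and 7 lower, which is 25.6% of the family beside 23.6% of all genes. In 15 channel genes (19.2%) each Phf21bΔ4/Δ4 mouse lay above each Phf21b+/+ mouse, beside 15.0% of all genes. In 6 channel genes (7.69%) each Phf21bΔ4/Δ4 mouse lay below each Phf21b+/+ mouse, beside 16.0% of all genes. Among the 6, *Kcnmb1* and *Kcnj5* reached 1 CPM in Phf21b+/+ mice only, and so have a row through that genotype. The median log2 change was 0.24 over the family and -0.02 over all genes, and the change was above 0 in 49 of the 78 channel genes (62.8%) and in 47.6% of all genes.

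The position of a mouse within its genotype was not the same across the family. Relative to the Phf21b+/+ mean, the median channel gene was at 0.15, 0.38, and 0.06 on the log2 scale in Phf21bΔ4/Δ4 replicates 2, 3, and 6, and at 0.17, -0.18, and 0.03 in Phf21b+/+ replicates 5, 7, and 8. Phf21bΔ4/Δ4 replicate 3 thus stood highest, and Phf21b+/+ replicate 5 lay above Phf21bΔ4/Δ4 replicates 2 and 6, so the medians of the genotypes overlapped. Phf21b+/+ replicate 7, the mouse with the most choroid plexus marker reads, was the lowest of its genotype in 56 of the 78 genes, and the part of that tissue in this order was not tested. Without this mouse the family's median log2 change was 0.14, and without Phf21bΔ4/Δ4 replicate 3 it was 0.11.

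**Figure D2:**
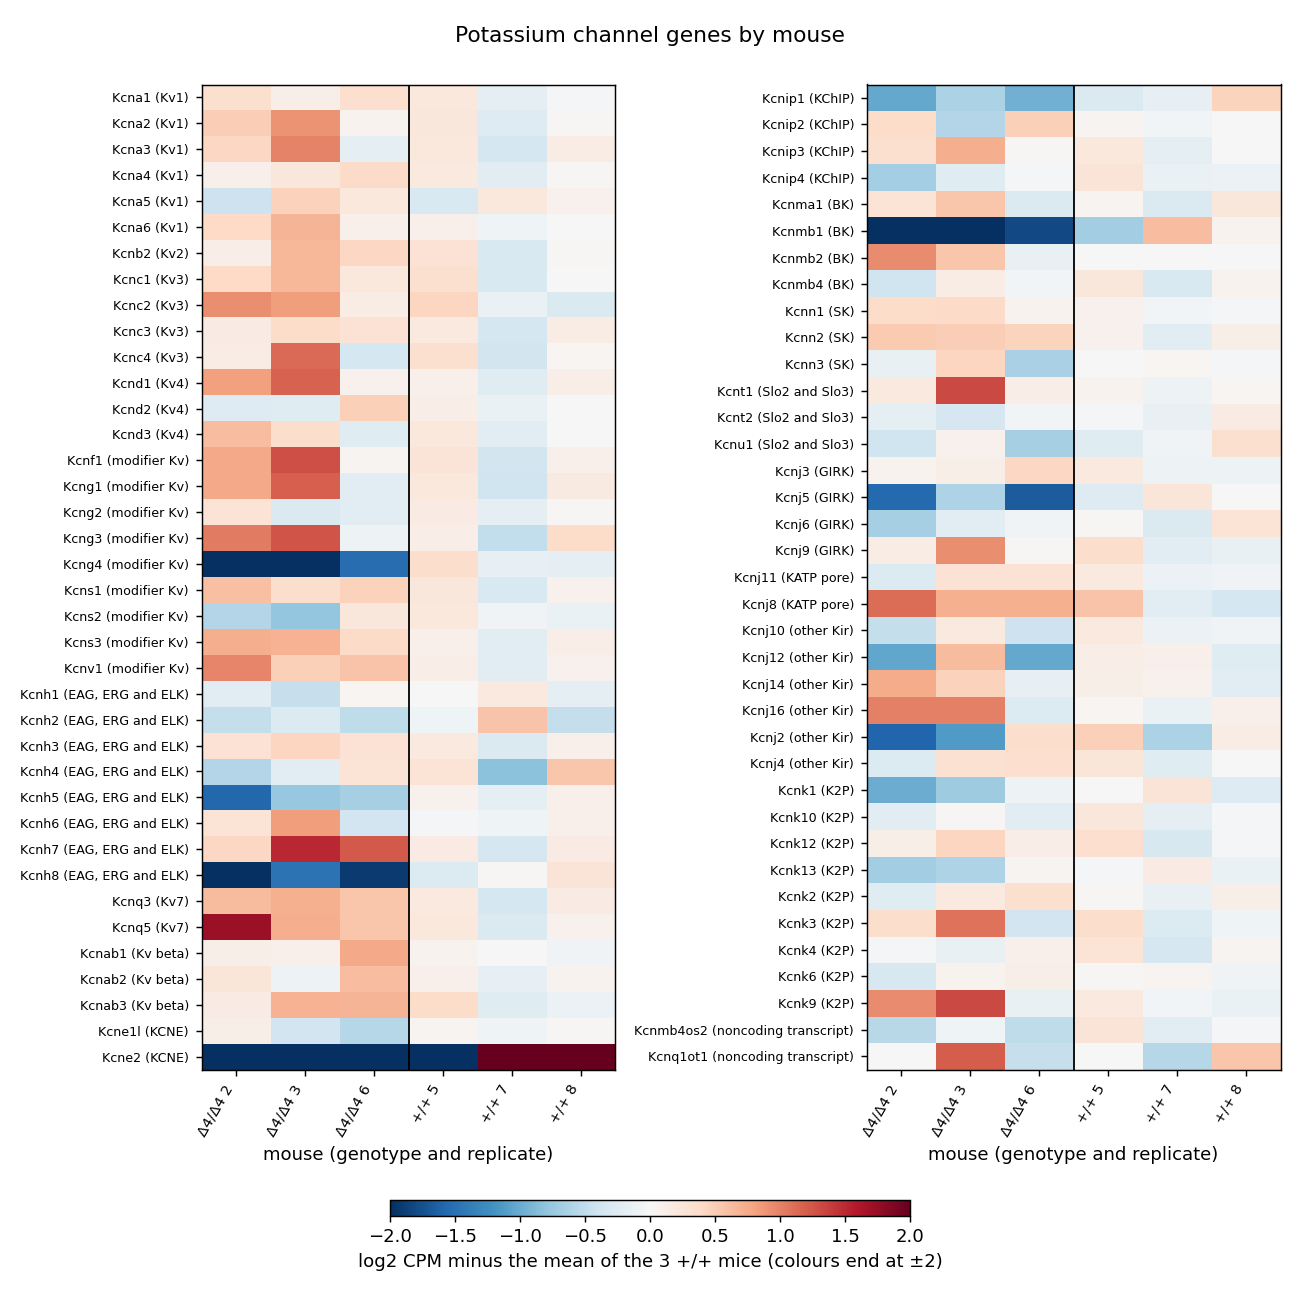
Log2 CPM of 75 potassium channel genes in each mouse, relative to the mean of the 3 Phf21b+/+ mice, with the subfamily in parentheses and colours that end at ±2. The rows of the Kv1, Kv3, and Kv7 genes are mostly red in the 3 Phf21bΔ4/Δ4 mice, *Kcng4*, *Kcnh8*, *Kcnmb1*, and *Kcnj5* are blue in all 3, and *Kcne2* is dark blue in Phf21b+/+ replicate 5 as well.

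**Figure D3:**
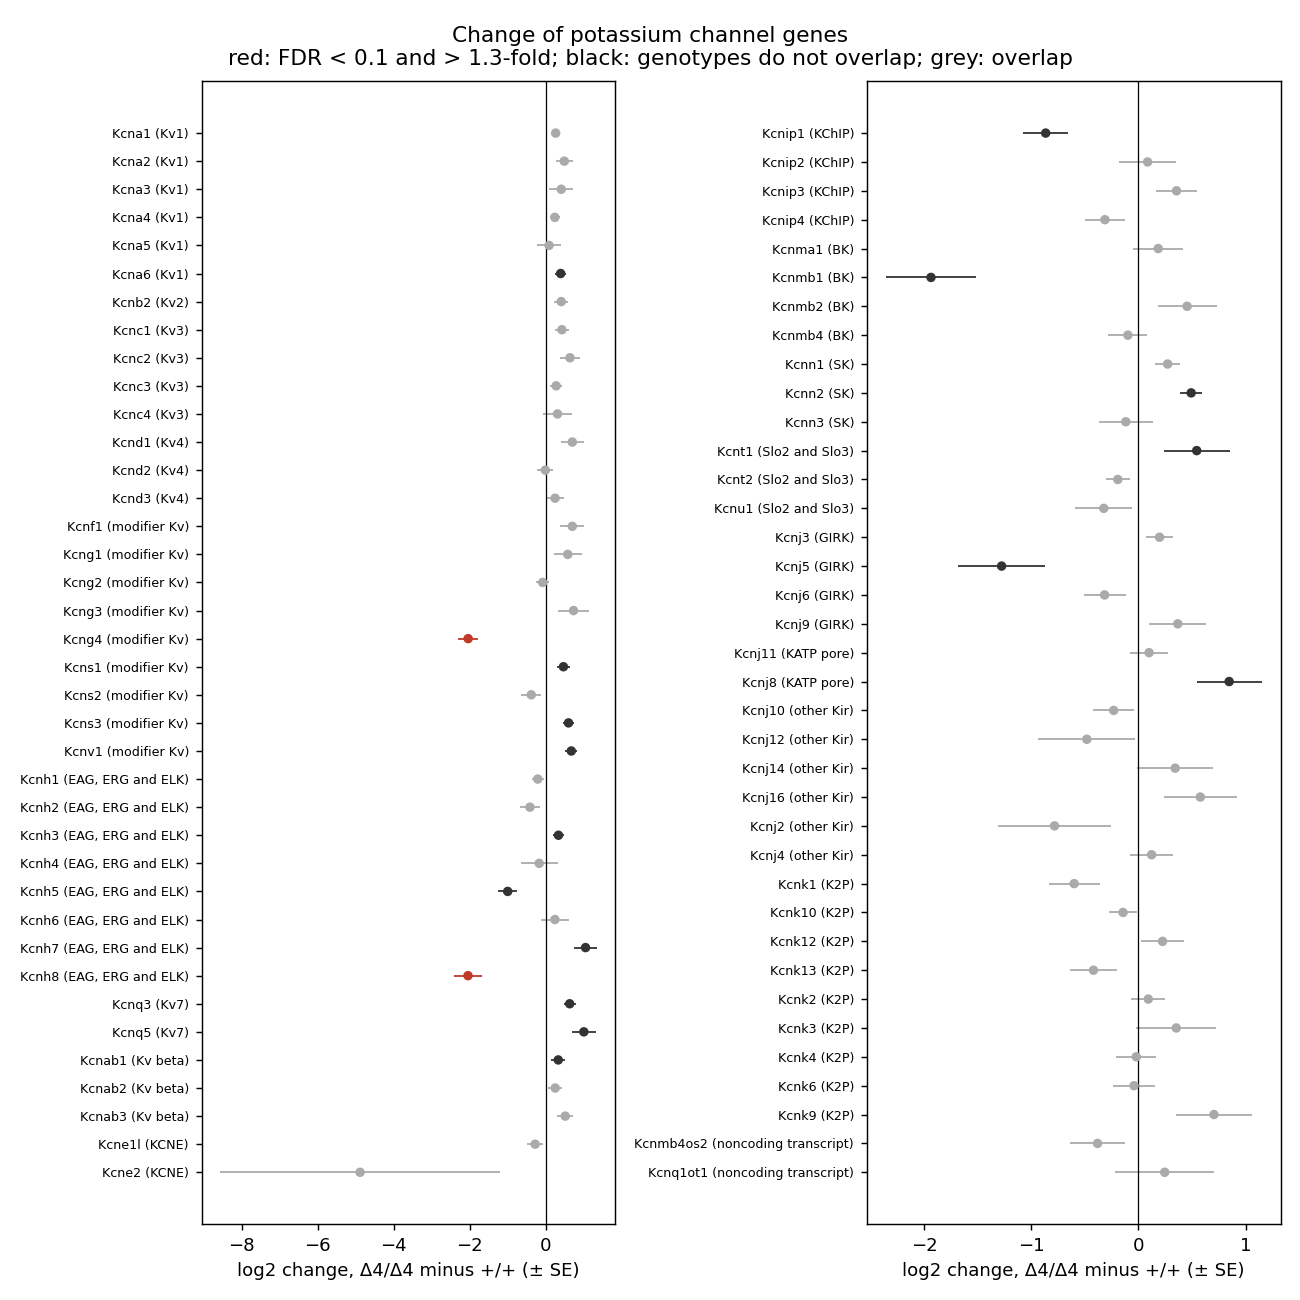
Log2 change (Phf21bΔ4/Δ4 minus Phf21b+/+) with its standard error for 75 of the genes, in 2 panels whose horizontal axes differ because of the wide error of *Kcne2* (-4.88 ± 3.67). The 2 called genes, in red, lie at -2.04 and -2.05, and the 16 other plotted genes whose genotypes do not overlap are in black.

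Between genes, levels were set side by side only per kilobase (kb) of annotated exon. By this measure the gene with the highest mean was *Kcnab2*, the Kvβ2 subunit that binds Kv1 channels in the axon, at 104 ± 10.1 CPM per kb (SD, n = 3) in Phf21b+/+ mice and 126 ± 31.1 in Phf21bΔ4/Δ4 mice. It was followed by *Kcnk1* (TWIK-1, a leak channel), *Kcnj3* (GIRK1), *Kcnd2* (Kv4.2), *Kcnj4* (Kir2.3), and *Kcnip2* (KChIP2, a partner of Kv4), whose Phf21b+/+ means were 58.1 ± 10.4, 43.2 ± 5.42, 43.9 ± 4.04, 36.6 ± 6.07, and 35.9 ± 1.495 CPM per kb. *Kcna1*, *Kcnip3*, and *Kcnma1* were also among the 10 highest, at 24.8 ± 3.41, 23.1 ± 3.26, and 21.2 ± 3.75 CPM per kb in Phf21b+/+ mice. Below *Kcnab2* the ranges of neighbouring genes overlapped, and the order of such neighbours was within the spread between mice. The 10 genes with the highest levels included 0 called genes. *Kcnh8*, *Kcnmb1*, and *Kcnj5*, which had among the largest decreases, were ranked 71, 76, and 78 of 78. The rank uses the mean of both genotypes, which a decrease itself lowers. *Kcnmb1* and *Kcnj5* also have a row only through Phf21b+/+ mice, so no link between level and change can be read from these ranks.

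**Figure D4:**
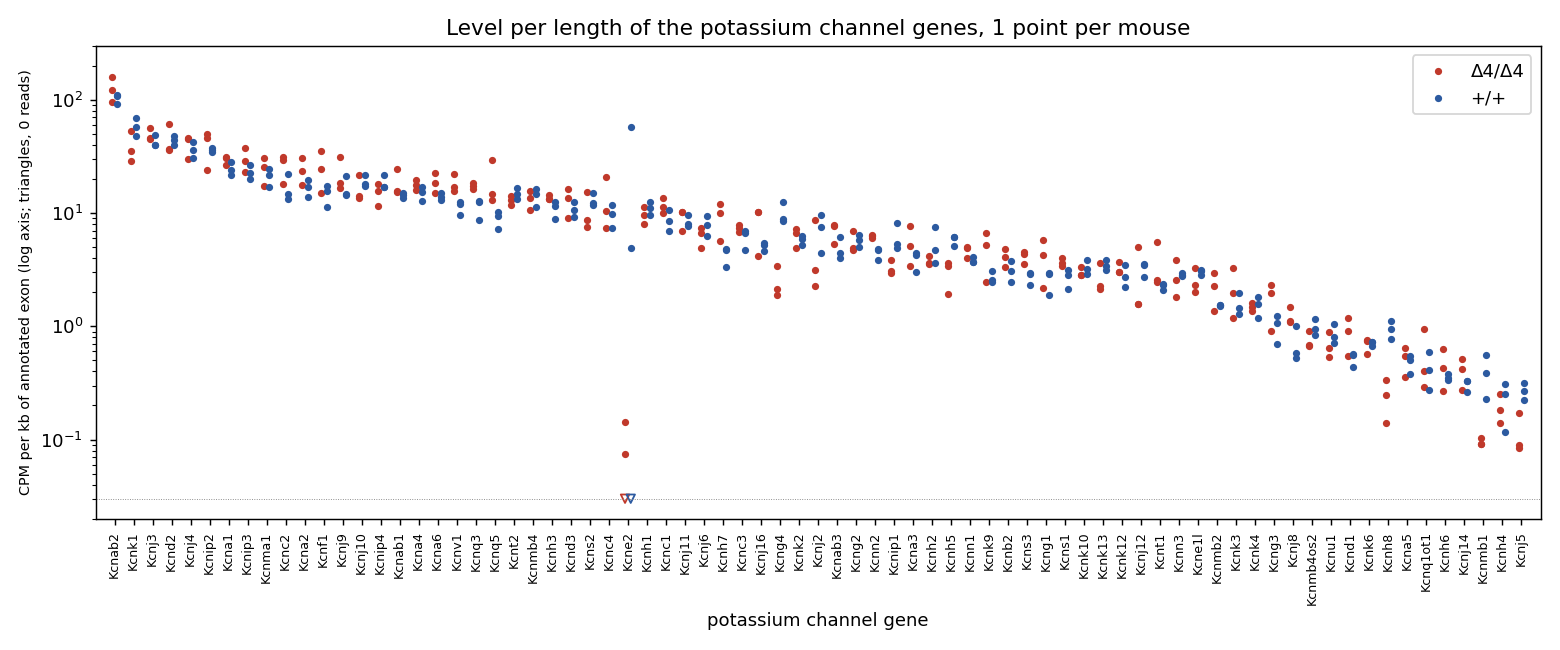
CPM per kb of annotated exon on a log axis for 75 of the genes in each mouse, ordered by the mean of the 6 mice, with open triangles on the dotted line for 0 reads. *Kcnab2* stands first near 100, most genes lie between 1 and 30, and the mice of *Kcne2* are spread from 0 reads to above 50.

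*Kcng4* encodes Kv6.4, a subunit that forms no channel alone and modifies Kv2 channels. Its level was 8.06, 7.19, and 13.01 CPM in the Phf21bΔ4/Δ4 mice (replicates 2, 3, and 6, as in all lists that follow), from 191, 151, and 299 reads, and 48.0, 33.5, and 32.7 CPM in the Phf21b+/+ mice (replicates 5, 7, and 8), from 1012, 794, and 727 reads. The genotypes were far apart, and Phf21bΔ4/Δ4 replicate 6 was the highest of its group. The mean was 9.42 ± 3.14 CPM against 38.1 ± 8.63 CPM (SD, n = 3 each), a decrease of 4.12-fold (log2 change -2.04, standard error 0.26, FDR 0.0576 by limma). *Kcng4* (ENSMUSG00000045246.11) lies on chromosome 8 from 119623854 to 119635680 on the minus strand of GRCm38.

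*Kcnh8* encodes ELK1, a voltage-gated channel that opens slowly and at negative potentials. Its level was 0.633, 1.52, and 1.13 CPM in Phf21bΔ4/Δ4 mice and 3.51, 4.35, and 5.08 CPM in Phf21b+/+ mice, from 15, 32, and 26 and 74, 103, and 113 reads, so the gene was low in all 6 mice and its counting error large. The genotypes did not overlap, and the mean was 1.10 ± 0.447 CPM against 4.31 ± 0.784 CPM (SD, n = 3 each), a decrease of 4.13-fold (log2 change -2.05, standard error 0.36, FDR 0.0890 by limma). *Kcnh8* (ENSMUSG00000035580.10) lies on chromosome 17 from 52602709 to 52979194 on the plus strand of GRCm38. The sums of the medial habenula and thalamus markers differed in the same direction, as given above. Their part in the values of *Kcng4* and *Kcnh8* was not tested.

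Without Phf21bΔ4/Δ4 replicate 6, the FDR was 0.0066 for *Kcng4* and 0.0361 for *Kcnh8*, whereas without any 1 of the other 5 mice it lay between 0.107 and 0.220 for *Kcng4* and between 0.111 and 0.317 for *Kcnh8*, and neither was called. The log2 change remained between -2.30 and -1.86 for *Kcng4* and between -2.33 and -1.70 for *Kcnh8* over these 6 fits. With all mice kept, *Kcnh8* was no longer called with the same prior variance for all genes (FDR 0.129), with genes below a mean log2 CPM of 1 left out (FDR 0.106), or with quantile normalization (FDR 0.108), whereas *Kcng4* was called in each. The study had already listed both genes from these samples, so their calls are not independent evidence. For 3 against 3 mice the smallest p of an exact permutation test is 0.1, which is the value for both genes.

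The promoters of these 2 genes and of *Kcnh7* and *Kcnq5*, the 2 with the largest increases in log2 CPM among genes whose genotypes did not overlap, are shown because the study examined Phf21b together with CREB, the transcription factor that binds the cAMP response element. Each window holds 250 bases before and 10 bases from the RefSeq start of GRCm38.p6 that lies at the start of the annotated gene, and capitals mark TGACG on either strand, the shorter form of the full element TGACGTCA. The windows are chr8:119635671-119635930 on the minus strand, chr17:52602459-52602718 on the plus strand, chr2:63184278-63184537 on the minus strand, and chr1:21961933-21962192 on the minus strand.
Kcng4: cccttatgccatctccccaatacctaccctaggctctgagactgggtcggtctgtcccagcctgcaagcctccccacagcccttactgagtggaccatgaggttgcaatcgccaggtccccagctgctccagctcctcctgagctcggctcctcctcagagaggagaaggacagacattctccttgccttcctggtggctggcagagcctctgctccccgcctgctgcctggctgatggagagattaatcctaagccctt
Kcnh8: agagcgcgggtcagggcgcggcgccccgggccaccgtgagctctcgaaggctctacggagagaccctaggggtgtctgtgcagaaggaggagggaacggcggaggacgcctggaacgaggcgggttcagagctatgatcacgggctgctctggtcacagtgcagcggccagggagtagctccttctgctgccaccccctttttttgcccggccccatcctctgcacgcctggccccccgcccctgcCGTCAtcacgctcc
Kcnh7: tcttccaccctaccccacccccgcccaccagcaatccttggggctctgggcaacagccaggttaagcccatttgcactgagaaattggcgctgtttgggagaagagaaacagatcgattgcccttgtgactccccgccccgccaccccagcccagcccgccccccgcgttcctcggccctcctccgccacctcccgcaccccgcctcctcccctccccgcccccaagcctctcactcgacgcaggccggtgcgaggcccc
Kcnq5: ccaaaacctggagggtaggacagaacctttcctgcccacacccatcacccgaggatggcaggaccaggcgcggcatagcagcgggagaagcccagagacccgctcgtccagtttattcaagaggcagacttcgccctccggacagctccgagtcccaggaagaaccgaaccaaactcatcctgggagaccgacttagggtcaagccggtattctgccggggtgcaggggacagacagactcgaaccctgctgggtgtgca
The shorter motif occurred 1 time in the *Kcnh8* window and 0 times in the other 3. The *Kcng4* window held 4 CpG dinucleotides and the *Kcnh8*, *Kcnh7*, and *Kcnq5* windows 21, 17, and 14. RefSeq promoter windows, which run further past the start, were matched for 56 of the 78 genes (80 windows). Of these windows, 0 held TGACGTCA and 15 (18.8%) held TGACG on either strand, beside 1.79% and 20.8% of all 32851 windows. Each TGACGTCA match also counts as a TGACG match.

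The Kv7 genes *Kcnq3* and *Kcnq5* were both higher in every Phf21bΔ4/Δ4 mouse than in every Phf21b+/+ mouse, and neither was called. *Kcnq3*, which encodes a subunit of the neuronal M-channel, was at 256, 270.0, and 241 CPM in Phf21bΔ4/Δ4 mice and 188, 129, and 185 CPM in Phf21b+/+ mice (log2 change 0.63, standard error 0.16, FDR 0.134, limma). Phf21b+/+ replicate 7 was the lowest mouse. *Kcnq5*, which encodes a further M-channel subunit, was at 225, 113, and 101 CPM in Phf21bΔ4/Δ4 mice and 79.1, 55.6, and 72.1 CPM in Phf21b+/+ mice (log2 change 1.003, standard error 0.31, FDR 0.155). Its highest value was that of replicate 2, and the other 2 Phf21bΔ4/Δ4 mice were nearer to the Phf21b+/+ range (log2 change 0.64 without replicate 2).

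Kv1 channels sit in axons and at terminals and set the threshold of firing. All 6 Kv1 genes had a log2 change above 0, with a median of 0.33 and 0 called. *Kcna1* was at 148, 128, and 149 CPM in Phf21bΔ4/Δ4 mice and 136, 104, and 116 CPM in Phf21b+/+ mice (FDR 0.236). *Kcna2* was at 278, 369, and 209 CPM and 232, 166, and 202 CPM (FDR 0.232), and *Kcna4* at 77.8, 85.1, and 94.4 CPM and 82.6, 62.5, and 73.8 CPM (FDR 0.282). In all 3 genes Phf21b+/+ replicate 5 overlapped the Phf21bΔ4/Δ4 mice. *Kcna6*, named after its values were seen, was the 1 Kv1 gene whose genotypes did not overlap, at 109.6, 133, and 88.9 CPM and 88.9, 78.3, and 82.3 CPM (log2 change 0.39, standard error 0.15, FDR 0.187). Phf21bΔ4/Δ4 replicate 6 and Phf21b+/+ replicate 5 were equal to within rounding. An antisense gene covers 39.6% of its annotated exon bases, and reads of the 2 strands cannot be told apart unless counting used the strand.

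Kv3 channels let interneurons fire fast. The 4 Kv3 genes all had a log2 change above 0 (median 0.37) and overlapping genotypes, with *Kcnc1* at 107, 129, and 94.4 CPM in Phf21bΔ4/Δ4 mice against 101, 66.1, and 80.6 CPM in Phf21b+/+ mice (FDR 0.215) and *Kcnc2* at 223, 209, and 129 CPM against 158, 106, and 95.4 CPM (FDR 0.205).

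Of the Kv4 genes, *Kcnd2* (Kv4.2), the main A-type subunit of pyramidal neurons, was at 188, 189.9, and 313 CPM in Phf21bΔ4/Δ4 mice and 247, 205, and 226 CPM in Phf21b+/+ mice. Phf21bΔ4/Δ4 replicate 6 was above and replicates 2 and 3 below all 3 Phf21b+/+ mice, and the log2 change of -0.01 (FDR 0.975) changed sign after centring the mice on their medians. *Kcnd3* (Kv4.3) was lowest in Phf21bΔ4/Δ4 replicate 6, at 157, 131, and 87.0 CPM against 119, 89.0, and 101 CPM (log2 change 0.25, FDR 0.507).

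The log2 change was above 0 in 18 of the 19 Kv1, Kv2, Kv3, Kv4, and Kv7 genes (94.7%), with a median of 0.41, and 6 of them (31.6%) had genotypes that did not overlap, all 6 higher, beside 15.0% of all genes. Over the other 59 members it was above 0 in 31 (52.5%), with a median of 0.09. These 5 subfamilies were put together after their values had been seen, so the counts are a description, and 0 of the 19 genes were called. CA1 and interneuron marker sums were higher in each Phf21bΔ4/Δ4 mouse than in each Phf21b+/+ mouse, as given above, and their part in the Kv values was not tested.

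The modifier subunits of the Kv5, Kv6, Kv8, and Kv9 groups form no channels alone and join Kv2 subunits. Apart from *Kcng4*, 3 of the 9 (33.3%) had genotypes that did not overlap, all 3 higher in Phf21bΔ4/Δ4 mice, beside 15.0% of all genes. *Kcnv1* (Kv8.1) was at 102, 72.4, and 77.7 CPM in Phf21bΔ4/Δ4 mice and 57.5, 44.5, and 55.5 CPM in Phf21b+/+ mice (log2 change 0.67, standard error 0.16, FDR 0.133). *Kcns3* (Kv9.3) was at 14.3, 13.9, and 11.2 CPM and 9.21, 7.39, and 9.39 CPM (log2 change 0.60, standard error 0.15, FDR 0.136). The third of these, *Kcns1* (Kv9.1), was at 10.9, 9.19, and 9.92 CPM and 8.49, 5.82, and 7.64 CPM (FDR 0.180) and was named after its values were seen. *Kcng4* was thus the 1 called member of the 9 modifier genes. Of their log2 changes, 6 (66.7%) were above 0 (median 0.58), beside 47.6% of all genes.

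The EAG, ERG, and ELK channels, encoded by the Kcnh genes, shape resting potential and spike adaptation. Besides *Kcnh8*, *Kcnh5* (EAG2) was lower in every Phf21bΔ4/Δ4 mouse, at 7.84, 13.8, and 14.7 CPM against 24.8, 20.6, and 24.99 CPM (log2 change -1.001, standard error 0.25, FDR 0.134, limma). *Kcnh7* (ERG3) was higher in every Phf21bΔ4/Δ4 mouse, at 86.0, 184, and 151 CPM against 72.9, 51.3, and 72.6 CPM, the largest increase in the family (log2 change 1.05, standard error 0.29, FDR 0.145). In *Kcnh7*, replicate 2 was the lowest of its genotype, while in *Kcnq5* it was the highest, so the largest increases were not carried by the same mouse. *Gca*, a listed gene on the other strand, covers 4.6% of the exon bases of *Kcnh7*. *Kcnh3* (ELK2), named after its values were seen, was at 76.5, 83.7, and 76.3 CPM against 71.7, 50.9, and 66.8 CPM (FDR 0.201). The median log2 change of the 8 genes was -0.19.

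**Figure D5:**
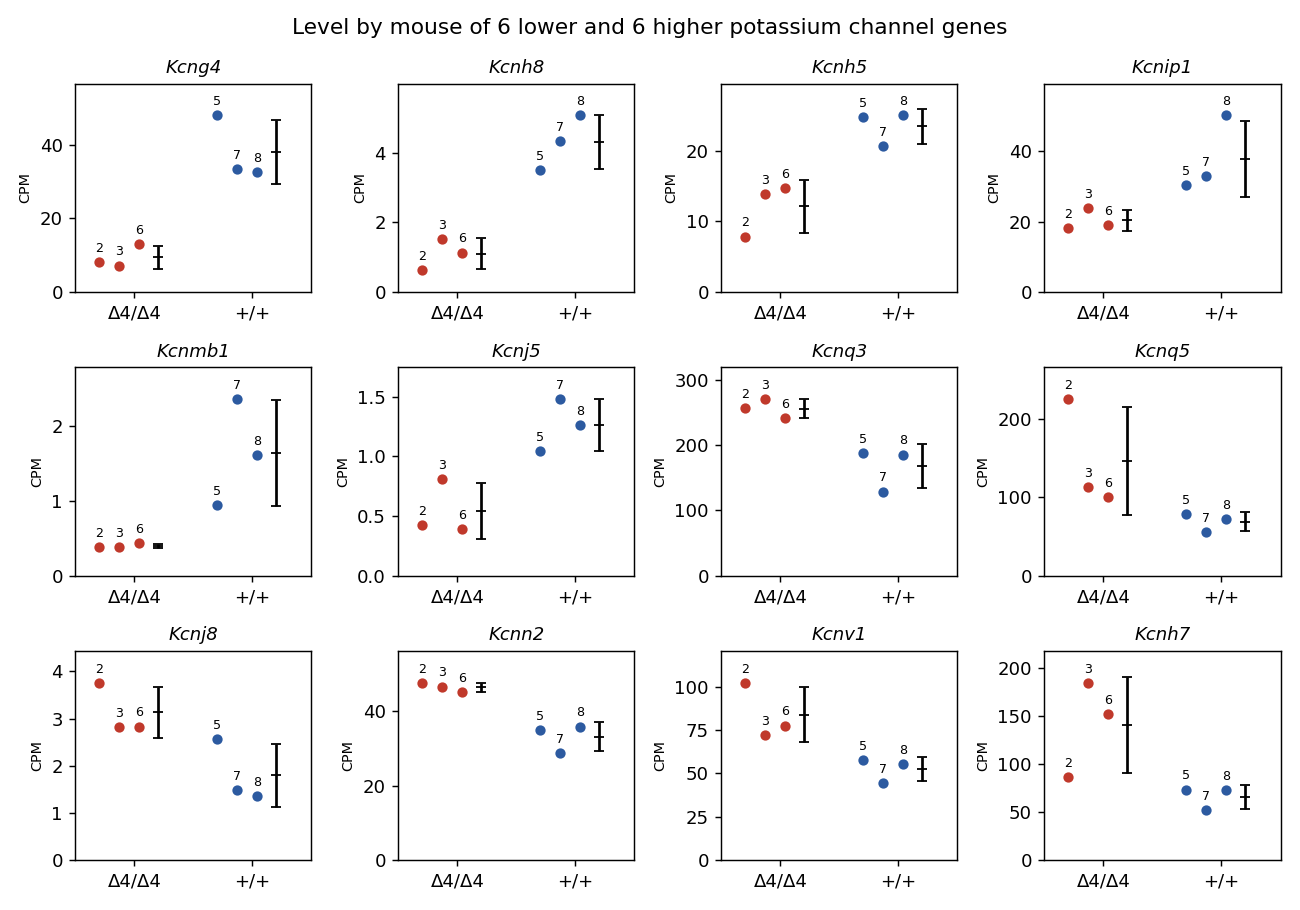
CPM of 12 potassium channel genes whose genotypes do not overlap, with 1 numbered point per mouse and the mean ± SD of each genotype (n = 3) beside the points, on axes that start at 0. The first 6 genes are lower and the last 6 higher in Phf21bΔ4/Δ4 mice, and *Kcng4* and *Kcnh8* are the 2 that were called.

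Kvβ proteins steer Kv1 channels to the axon, and all 3 had a log2 change above 0 with 0 called. *Kcnab2* was at 685, 540.3, and 886 CPM in Phf21bΔ4/Δ4 mice and 621, 518, and 607 CPM in Phf21b+/+ mice (log2 change 0.25, FDR 0.426), overlapping, and its sign changed under quantile normalization. *Kcnab1* (Kvβ1), named after its values were seen, was at 135, 133, and 209 CPM and 129, 124, and 118 CPM (FDR 0.294), without overlap. KChIP proteins bind calcium and bring Kv4 channels to the membrane. *Kcnip1* (KChIP1) was lower in every Phf21bΔ4/Δ4 mouse, at 18.3, 23.9, and 19.1 CPM against 30.4, 33.0, and 50.2 CPM (log2 change -0.87, standard error 0.21, FDR 0.133, limma). The other 3 overlapped, with *Kcnip2* at 159.9, 83.0, and 174 CPM against 129.8, 119, and 125 CPM, *Kcnip3* at 102, 134, and 82.4 CPM against 93.9, 70.9, and 81.0 CPM, and *Kcnip4* at 41.8, 56.6, and 65.9 CPM against 79.5, 61.1, and 61.5 CPM (FDR 0.856, 0.290, and 0.332). *Kcnip2* and *Kcnd2*, whose products form 1 channel complex, both had their highest value in Phf21bΔ4/Δ4 replicate 6. In *Kcnd3* and *Kcnip3*, by contrast, replicate 6 was the lowest of its genotype.

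*Kcne2*, an accessory subunit known from the choroid plexus and stomach, had 6, 0, and 3 reads in the Phf21bΔ4/Δ4 mice, while the Phf21b+/+ mice had 0, 2417, and 195 reads. The levels in the last 2 mice were 102 and 8.76 CPM, so the Phf21b+/+ mice spanned the whole range of the gene and the genotypes overlapped (log2 change -4.88, standard error 3.67, FDR 0.425). Phf21b+/+ replicates 7 and 8 were also the 2 mice with the highest sums of choroid plexus markers, in the same order, and the part of that tissue in the values of *Kcne2* was not tested.

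*Kcnma1*, the pore of the large-conductance (BK) channel, was at 432, 524, and 292 CPM in Phf21bΔ4/Δ4 mice and 369, 292, and 418 CPM in Phf21b+/+ mice and overlapped (log2 change 0.18, FDR 0.634, with the other sign under quantile normalization). *Kcnmb4*, the neuronal β subunit, was at 35.7, 51.9, and 45.0 CPM against 54.8, 37.9, and 49.3 CPM (FDR 0.752), and the listed antisense gene *Kcnmb4os2*, itself a member, covers 20.8% of its exon bases. *Kcnmb1*, the β subunit known from smooth muscle, was lower in every Phf21bΔ4/Δ4 mouse, at 0.380, 0.381, and 0.435 CPM against 0.949, 2.36, and 1.62 CPM (log2 change -1.94, standard error 0.42, FDR 0.129, limma), from 9, 8, and 10 and 20, 56, and 36 reads. Only Phf21b+/+ mice reached 1 CPM, so *Kcnmb1* has a row through the genotype in which it was higher. Its direction is therefore a description only. *Kcnmb1* lies within the span of *Kcnip1*, on the other strand. Reads of the 2 strands cannot be told apart unless counting used the strand.

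Small-conductance (SK) channels produce the afterhyperpolarization that follows a spike. *Kcnn2* (SK2) was at 47.7, 46.7, and 45.2 CPM in Phf21bΔ4/Δ4 mice and 35.1, 28.7, and 35.9 CPM in Phf21b+/+ mice, with a narrow spread in the first group and no overlap (log2 change 0.49, standard error 0.10, FDR 0.121, limma). *Kcnn1* was at 22.7, 22.9, and 18.3 CPM against 18.7, 16.97, and 16.99 CPM (FDR 0.219) and *Kcnn3* at 27.1, 40.3, and 19.1 CPM against 29.8, 30.8, and 29.1 CPM (FDR 0.782). *Kcnn3* was above and below the Phf21b+/+ mice in different Phf21bΔ4/Δ4 mice. *Kcnt1*, a sodium-activated channel, was at 24.3, 52.9, and 23.3 CPM against 22.4, 19.8, and 21.8 CPM (log2 change 0.54, standard error 0.31, FDR 0.308). Its genotypes did not overlap, but replicates 2 and 6 were close to the Phf21b+/+ mice and replicate 3 carried the difference, which was 0.160 on the log2 scale without it.

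GIRK channels open when G protein–coupled receptors are activated. *Kcnj3* (GIRK1) was at 235, 242, and 297 CPM in Phf21bΔ4/Δ4 mice and 258, 209, and 209 CPM in Phf21b+/+ mice, *Kcnj6* (GIRK2) at 37.5, 50.6, and 56.6 CPM and 59.98, 48.4, and 71.6 CPM, and *Kcnj9* (GIRK3) at 78.8, 135, and 71.9 CPM and 90.8, 61.5, and 63.7 CPM (FDR 0.370, 0.344, and 0.407). These 3 neuronal subunits overlapped. *Kcnj5* (GIRK4), best known from the heart, was lower in every Phf21bΔ4/Δ4 mouse, at 0.422, 0.810, and 0.391 CPM against 1.04, 1.48, and 1.26 CPM (log2 change -1.28, standard error 0.41, FDR 0.159, limma), from 10, 17, and 9 and 22, 35, and 28 reads. Only Phf21b+/+ mice reached 1 CPM, so *Kcnj5* has a row through the genotype in which it was higher. Its direction is therefore a description only.

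*Kcnj8* (Kir6.1), the pore of the ATP-sensitive channel of vessels, was at 3.75, 2.81, and 2.83 CPM in Phf21bΔ4/Δ4 mice and 2.56, 1.48, and 1.35 CPM in Phf21b+/+ mice (log2 change 0.85, standard error 0.30, FDR 0.176), without overlap. Its regulatory subunit *Abcc9*, from the list of partners, was at 11.1, 10.3, and 8.57 CPM against 8.40, 5.06, and 4.0 CPM (FDR 0.165), also without overlap. Endothelial and pericyte markers summed to 404, 316, and 277 CPM and 263, 250, and 188 CPM in the same mice, with 0 of 9 called, and their part was not tested.

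Of the glial rectifiers, *Kcnj10* (Kir4.1) was at 73.1, 117, and 76.7 CPM in Phf21bΔ4/Δ4 mice and 117, 93.6, and 97.1 CPM in Phf21b+/+ mice (FDR 0.466). Its partner *Kcnj16* (Kir5.1) was at 40.0, 40.3, and 16.5 CPM and 20.5, 18.2, and 21.5 CPM (FDR 0.326). In *Kcnj16*, replicates 2 and 3 were well above the Phf21b+/+ mice and replicate 6 below them. *Kcnj2* (Kir2.1), which steadies the resting potential, was at 12.4, 17.1, and 47.8 CPM in Phf21bΔ4/Δ4 mice and 52.1, 24.1, and 41.2 CPM in Phf21b+/+ mice (log2 change -0.78, FDR 0.374), with replicates 2 and 3 below all Phf21b+/+ mice and replicate 6 within their range. *Kcnj4* (Kir2.3) was at 64.3, 96.6, and 98.7 CPM and 91.9, 65.8, and 78.5 CPM (FDR 0.714) and *Kcnj12* (Kir2.2), with its highest value in replicate 3, at 4.30, 13.8, and 4.35 CPM and 9.78, 9.58, and 7.51 CPM (FDR 0.518).

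The 9 K2P genes all had overlapping genotypes, with 0 called and a median log2 change of -0.02. *Kcnk1* (TWIK-1) was at 64.6, 78.9, and 119 CPM in Phf21bΔ4/Δ4 mice and 129, 154, and 107 CPM in Phf21b+/+ mice (log2 change -0.60, standard error 0.24, FDR 0.199), and *Kcnk2* (TREK-1) at 24.4, 32.8, and 36.1 CPM and 29.3, 26.0, and 31.2 CPM (FDR 0.735). *Kcnk9* (TASK-3), an acid-sensitive leak channel, was at 63.8, 82.9, and 30.01 CPM and 37.8, 31.8, and 30.4 CPM (log2 change 0.71, standard error 0.35, FDR 0.265). For *Kcnk1*, Phf21bΔ4/Δ4 replicates 2 and 3 were below all Phf21b+/+ mice and replicate 6 lay within their range. For *Kcnk9*, replicates 2 and 3 were above all Phf21b+/+ mice and replicate 6 was not. Dentate granule cell marker sums, given above, also separated replicates 2 and 3 from replicate 6, and their part in these values was not tested.

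The noncoding transcript *Kcnq1ot1*, which silences imprinted neighbours in cis, was at 37.5, 87.4, and 27.3 CPM in Phf21bΔ4/Δ4 mice and 38.1, 25.4, and 55.6 CPM in Phf21b+/+ mice and overlapped (log2 change 0.24, FDR 0.757). The plotted members not given by their values all had overlapping genotypes and were not called, and their log2 changes lay between -0.42 and 0.73.

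Leaving out Phf21bΔ4/Δ4 replicate 6 raised the number of called channel genes from 2 to 27, with 18 higher, where 10.3% of all genes were called higher, and 9 lower, where 9.29% were called lower. The 18 are 23.1% and the 9 are 11.5% of the family. Among the 18 were *Kcnq3*, *Kcnq5*, *Kcna2*, *Kcna6*, *Kcnc2*, *Kcnn2*, *Kcnv1*, *Kcnj16*, and *Kcnk9*, with log2 changes between 0.51 and 1.22, and among the 9 were *Kcng4*, *Kcnh8*, *Kcnh5*, *Kcnip1*, *Kcnmb1*, *Kcnk1*, and *Kcnj2*, with log2 changes between -0.82 and -2.30. With any 1 of the other 5 mice left out, 0 channel genes were called, while between 11 (14.1%) and 25 (32.1%) had an unadjusted p under 0.05, beside between 13.2% and 22.2% of all genes.

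Of 36 listed proteins that bind or regulate potassium channels, 33 had a row, and 3 were called (1.22% of all genes were). *Lrrc55*, a γ subunit of the BK channel, fell, with 9.91, 18.9, and 23.9 CPM in Phf21bΔ4/Δ4 mice and 74.97, 75.1, and 117 CPM in Phf21b+/+ mice (log2 change -2.40, standard error 0.34, FDR 0.0648, limma). *Akap5*, a scaffold that holds kinases near Kv7 and other channels, rose, with 161, 203, and 148 CPM against 92.2, 88.3, and 98.2 CPM (log2 change 0.86, standard error 0.13, FDR 0.0669). *Adam23*, a receptor for LGI proteins that regulate Kv1 channels, rose, with 239.9, 214, and 223 CPM against 164, 133, and 151 CPM (log2 change 0.60, standard error 0.10, FDR 0.0787). In these 3 genes the genotypes did not overlap. The study had already listed all 3 from these samples, so they are not independent evidence. Of the 33 partners, 12 (36.4%) were higher in every Phf21bΔ4/Δ4 mouse and 1 (3.03%) lower, beside 15.0% and 16.0% of all genes, with a median log2 change of 0.18. Of 14 pumps, cotransporters, and organelle channels that move potassium, 0 were called. Without overlap, 6 (42.9%) were higher and 2 (14.3%) lower, beside 15.0% and 16.0% of all genes. The largest difference of the 14 was that of *Slc12a7*, a potassium-chloride cotransporter, whose genotypes overlapped, at 5.52, 3.52, and 3.35 CPM against 4.79, 9.54, and 8.32 CPM (log2 change -0.85, standard error 0.32, FDR 0.185).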

How the data were processed

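Hippocampal RNA-Seq values were analysed for 3 Phf21bΔ4/Δ4 and 3 Phf21b+/+ mice, grouped by their sample labels. The deposited values are log2 CPM, made by the authors with Trimmomatic 0.39, STAR 2.7.3a on GRCm38, featureCounts (Subread 1.6.4), and edgeR, per the submitters' processing notes, keeping genes that reached a CPM of 1 in 2 or more libraries. Strandedness of counting is not given in the sources used here. After a prior count of about 0.1 was taken off, 100.0% of the values came out as whole reads (tolerance 0.1), which gave the reads and CPM printed. The 2 genotypes were tested on these log2 values, as deposited, by limma 3.58.1 under R 4.3.3 (2-sided, prior variance following the mean, Benjamini-Hochberg adjustment over 14477 genes). The authors tested with edgeR, which takes counts. The test was checked on simulated data. Each p-value sets the difference between the genotypes against the spread between mice within a genotype, as moderated by limma over all genes. Positions and exon lengths come from a GENCODE annotation of GRCm38, in which 14277 symbols (98.6%) and all 78 members were found.

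Members and lists were chosen with earlier results of these data known. Named genes are called members, the 10 largest increases and decreases without overlap, the 10 highest levels per kb, the 5 largest spreads within a genotype, reference channels of hippocampal cells, called partners, and the largest difference among partners and transport genes. Of the 78 channel genes, 3, and of the transport genes, 1, are counted but not reported singly or plotted here. Alternatives were the same prior variance for all genes, robust empirical Bayes, arrayWeights, log2(CPM + 1), a mean log2 CPM of at least 1, quantile normalization, centring on the median, voom on the recovered reads, dropping the fold threshold, an FDR under 0.05, and each mouse left out.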

Additional observations from a re-analysis of the deposited data

How the results depend on the processing

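The number of called potassium channel genes, 2 of 78, was 1 with the same prior variance for all genes, 1 with only genes of a mean log2 CPM of at least 1, 1 with quantile normalization (*Kcng4* in each), 0 at an FDR under 0.05, and 35 (44.9%) with mice weighted by arrayWeights, where 24.5% of all genes were called, and ranged from 0 to 27 with each mouse left out. The number of called genes among the 33 partners and 14 transport genes together was 3. It was 0 with the same prior variance, 0 at an FDR under 0.05, and 2 with quantile normalization. With arrayWeights it was 14, where 24.5% of all genes were called. It ranged from 0 to 12 with each mouse left out. The 12 were without Phf21bΔ4/Δ4 replicate 6, where 19.5% of all genes were called. The number of channel genes without overlap, 21, ranged from 23 (29.5%) to 47 (60.3%) with each mouse left out, beside 36.9% to 55.3% of all genes, since fewer mice overlap less often by construction. The median log2 change of 0.24 lay between 0.11 and 0.31 under all its alternatives. Of the 42 named genes, 33 kept their sign in every alternative that gave a value, 14 per gene but 13 for *Kcnj5*, *Kcnmb1*, and *Kcne2*, which the filter on mean log2 CPM left out. The other 9 had log2 changes between -0.12 (*Kcnn3*) and 0.25 (*Kcnab2*). The same prior variance, robust empirical Bayes, and the filter on mean log2 CPM leave a gene's log2 change as it was. These settings therefore could not change a sign. Quantile normalization gave -0.03 for *Kcnab2*, -0.038 for *Kcnma1*, and -0.022 for *Kcnip2*, centring gave 0.038 for *Kcnd2*, and arrayWeights gave -0.12 for *Kcnj4*, -0.20 for *Kcnq1ot1*, and -0.17 for *Kcnk2*. With each mouse left out, the values ranged from -0.0021 to 0.42 for *Kcnma1*, -0.25 to 0.11 for *Kcnd2*, -0.11 to 0.42 for *Kcnip2*, -0.0001 to 0.32 for *Kcnj4*, -0.24 to 0.60 for *Kcnq1ot1*, -0.25 to 0.047 for *Kcnmb4*, -0.39 to 0.15 for *Kcnn3*, and -0.025 to 0.26 for *Kcnk2*. The causes were not tested. No paired analysis was possible because the sample labels do not say which mice were littermates.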
